A study of Mus musculus with 12 samples.

Results

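Open chromatin was compared between macrophages grown from the bone marrow of diabetic and of control mice, in the rest phase that follows marrow isolation. The comparison takes 4 of the 12 libraries of the series, 2 labelled diabetic-trained and 2 labelled untrained, and every one of the 139999 peaks in the rest-phase table. All mice were male C57BL/6J, entered at 8 weeks of age. Diabetic donors had received streptozotocin, a toxin of insulin-producing beta cells, at 42 to 45 mg/kg daily for 5 days, were accepted above 16.9 mmol/L blood glucose and stayed hyperglycaemic for 6 weeks, whereas untrained cells came from the control donors. Both kinds of progenitors then spent 7 days in M-CSF, the growth factor that drives macrophage differentiation, in medium with 5 mmol/L glucose, and neither was stimulated. Separate animals are not named in the labels for the libraries, so p-values measure only the spread between these libraries, which may be technical. Each mean column belongs to one group, but the headers name neither. The text writes A for the first of these columns and B for the other, and no direction relative to diabetes can be given.

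ATAC-seq uses the Tn5 transposase to cut DNA where nucleosomes or other proteins leave it open, so reads pile up at promoters, enhancers and, in heavily transcribed genes, over the gene body and past its end. Trained immunity is the idea that innate immune cells and their progenitors keep a chromatin record of an earlier exposure after the exposure has ended. Immediate early genes such as Fos, Jun and Egr1 encode transcription factors and feedback regulators that are switched on within minutes of a stimulus, without new protein synthesis. Replication-dependent histone genes lie in clusters, lack introns and are transcribed mainly in S phase.

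The promoters shown are those of genes with some of the largest differences in either direction. Each run holds the 250 bases before the RefSeq start, read 5′ to 3′ on the strand of the gene (GRCm38.p6, the assembly of the mm10 build). The windows are Fos chr12:85473640-85473889 (+), Fosb chr7:19310046-19310295 (-), Btg2 chr1:134079156-134079405 (-), Mt2 chr8:94172368-94172617 (+), H3c8 chr13:23535168-23535417 (+) and H3c3 chr13:23745522-23745771 (-). Capitals mark the cyclic AMP response half-site TGACG on either strand in Fos, Fosb and Btg2, the metal response element TGCNCNC on either strand in Mt2, and the CCAAT box, on either strand, in the histone genes.
Fos: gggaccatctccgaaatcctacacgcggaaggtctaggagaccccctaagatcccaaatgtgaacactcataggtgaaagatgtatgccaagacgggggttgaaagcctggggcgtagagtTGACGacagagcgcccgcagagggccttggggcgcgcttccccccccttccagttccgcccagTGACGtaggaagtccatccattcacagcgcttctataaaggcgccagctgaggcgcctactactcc
Fosb: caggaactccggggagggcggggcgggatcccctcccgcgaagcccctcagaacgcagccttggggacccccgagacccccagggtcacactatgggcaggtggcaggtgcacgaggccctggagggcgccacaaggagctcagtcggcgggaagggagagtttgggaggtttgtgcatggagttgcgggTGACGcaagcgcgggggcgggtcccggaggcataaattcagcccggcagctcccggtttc
Btg2: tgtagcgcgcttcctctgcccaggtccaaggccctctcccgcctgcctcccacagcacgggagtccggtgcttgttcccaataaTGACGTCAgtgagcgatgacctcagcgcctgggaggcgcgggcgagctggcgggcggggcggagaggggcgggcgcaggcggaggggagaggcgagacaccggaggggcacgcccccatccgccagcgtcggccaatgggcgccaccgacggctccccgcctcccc
Mt2: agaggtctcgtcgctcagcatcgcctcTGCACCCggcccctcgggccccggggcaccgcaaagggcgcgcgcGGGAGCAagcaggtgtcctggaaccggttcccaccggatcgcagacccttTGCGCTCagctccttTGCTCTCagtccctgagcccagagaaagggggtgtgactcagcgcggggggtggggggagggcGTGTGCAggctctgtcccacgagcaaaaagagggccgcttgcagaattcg
H3c8: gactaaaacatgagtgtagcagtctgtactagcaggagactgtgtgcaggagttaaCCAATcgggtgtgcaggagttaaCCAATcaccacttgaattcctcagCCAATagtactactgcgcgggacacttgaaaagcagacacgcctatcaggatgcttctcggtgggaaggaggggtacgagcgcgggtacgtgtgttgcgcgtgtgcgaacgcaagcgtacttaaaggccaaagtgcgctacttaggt
H3c3: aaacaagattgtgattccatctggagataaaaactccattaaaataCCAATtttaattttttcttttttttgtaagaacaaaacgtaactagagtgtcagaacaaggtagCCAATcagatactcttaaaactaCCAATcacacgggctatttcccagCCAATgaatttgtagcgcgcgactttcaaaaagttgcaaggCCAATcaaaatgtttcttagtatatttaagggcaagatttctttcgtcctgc
The half-site stood at 2 places before Fos and 1 before Fosb, and in Btg2 its 2 copies overlap in the full palindrome TGACGTCA. The metal response element, through which metal-responsive factor 1 acts on metallothionein genes, was found 5 times before Mt2. CCAAT boxes were found 3 times before H3c8 and 5 times before H3c3. Among 32851 RefSeq promoter windows of 300 bases, 20.8% held the half-site, 1.79% the full palindrome, 51.0% the metal response element and 37.4% a CCAAT box, so all but the palindrome are common.

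Reads in peaks numbered 18617444 and 16002834 for the libraries of A and 5459236 and 8775958 for those of B. One read was worth 0.891 and 0.953 in the table for A against 0.793 and 0.939 for B, as the authors' normalization set it, and the deposited means were higher in A at most peaks, by a median of 1.29 (log2). All differences below are therefore taken relative to that median. Levels are log2 (value + 1) with the libraries set to the same median, and a difference is A minus B from limma with its SE (n = 2 and 2 libraries throughout). The adjusted p is the larger of those from this scaling and from quantile scaling (limma, Benjamini-Hochberg over 139940 peaks). A peak was called where both were under 0.05 in the same direction. Of 5 equal groups of peaks by level, the lowest took 2.44% and 2.55% of the reads in A against 5.36% and 3.04% in B. Its median difference was -0.71, and that of the highest group 0.20. The highest group took 65.1% and 64.6% of the reads in A and 64.3% and 69.2% in B. The part of depth and of these shares in the calls was not tested.

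The start peak of a gene is its highest peak that the deposited annotation places in a promoter, up to 3 kb from a start. It can lie outside the 500 bp used for gene starts below. Levels at start peaks are given in RPM (relative to all reads in peaks). Those of 18 macrophage markers had medians of 29.9 and 33.6 in A and 23.1 and 27.4 in B. Of the 18, 17 lay at or above the median of all 16064 start peaks. Csf1r, the M-CSF receptor, had 72.3 and 71.3 in A and 65.9 and 66.0 in B, at a peak 2558 bp from the annotated start. The neutrophil, B cell, T and NK cell, erythroid and megakaryocyte, stem and progenitor, dendritic and mast cell, and stromal lists had medians of 2.57 to 6.34 RPM. Single members of these lists were higher, among them the erythroid gene Klf1 (18.2 to 24.2 RPM) and the megakaryocyte gene Itga2b (21.3 to 25.8). So were the T cell genes Gata3 (30.5 to 34.4) and Cd3d (29.3 to 41.3), Runx1 of the stem and progenitor list (31.9 to 39.9) and Bank1 of the B cell list (17.2 to 35.4). At or above the median of all start peaks lay 4 of 10 genes in the T and NK cell list. In the erythroid and megakaryocyte list and in the stem and progenitor list it was 3 of 11 each. It was 2 of 7 for dendritic and mast cells, 2 of 11 for B cells, 1 of 12 for the stromal list and 0 of 15 for neutrophils. In bulk samples, fewer cells of a type and less open chromatin per cell cannot be told apart.

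Of 139940 peaks tested, 8085 (5.78%) were called towards A and 4766 (3.41%) towards B, together 9.18%. The calls differed by position. At gene starts (within 500 bp of the RefSeq start) 178 of 10494 peaks were higher in A (1.70%) and 1143 higher in B (10.9%). In gene bodies the counts were 3820 and 1674 of 64611 (5.91% and 2.59%, together 8.50%), and farther than 10 kb from the assigned gene 2804 and 1162 of 40758. Peaks at gene ends, from 500 bp before to 2000 bp after the RefSeq end, were split evenly, with 162 higher in A and 156 in B of 3186 (5.08% and 4.90%, together 9.98%). Gene starts took 21.2% and 22.7% of the reads of A but 27.7% and 28.6% of those of B. Without centring, on the deposited scale, 1026 of the 1143 gene-start peaks called higher in B had the higher mean in A. At these 1026 the direction holds only relative to the median peak, and the other 117 had the higher mean in B. Leaving out any 1 of the 4 libraries left 0 peaks called under both scalings, with 9947 to 31789 at an unadjusted p under 0.05 by limma, where a group of 1 library is assumed to vary like the other. Under the median-centred scaling alone the same omissions left 4867 to 41065 calls, and of 129 named peaks 1 uncalled peak changed sign.

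**Figure D1:**
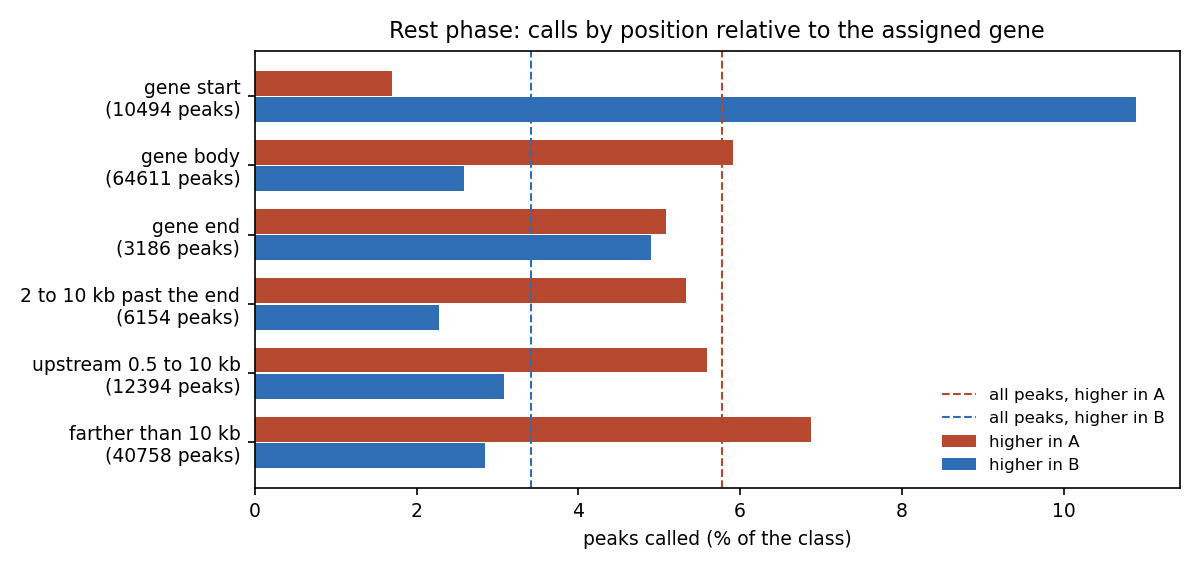
Share of peaks called higher in A (red) and higher in B (blue) in 6 classes of position relative to the assigned gene, as percent of the class; dashed lines give the shares over all peaks (5.78% and 3.41%). Gene starts stand at 10.9% higher in B and 1.70% higher in A, and peaks farther than 10 kb lean to A.

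The largest differences in the comparison were at immediate early genes, and they were higher in B. The peak in the body of Egr1, a zinc-finger factor, 2.7 kb from its start (chr18:34863732-34864131), held 9 and 24 reads in A and 240 and 521 in B although the A libraries were deeper. Its difference was -5.70 (SE 0.30, adjusted p = 0.000626 by limma), which is 52.1-fold higher in B. The peak just past the end of Fosb (chr7:19302063-19302462), which encodes an AP-1 subunit, held 6 and 6 reads in A and 77 and 253 in B, a difference of -5.54 (SE 0.35, adjusted p = 0.000456 by limma). In all 12 peaks named for the largest differences towards B, both B libraries lay above both A libraries. The mean in B was higher on the uncentred deposited scale too. Choosing the largest called differences from these same libraries favours both, so neither is separate support. In the authors' deposited table the log2 means at the Egr1 peak were 3.95 in A and 8.41 in B.

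Btg2, which restrains proliferation, had 45 and 35 reads in A and 318 and 828 in B at the peak on its end (chr1:134074563-134074962; -4.88, SE 0.27). Fos, the partner of Jun in AP-1, had 36 and 48 reads in A and 296 and 653 in B past its end (chr12:85477354-85477753; -4.59, SE 0.27), and its gene-body peak differed by -4.53 (SE 0.27). Jun had 49 and 27 reads in A and 200 and 463 in B at its end (chr4:95049005-95049404; -4.25, SE 0.28). These 3 genes and Egr1 share one shape, in which the groups lie far apart at the end of the gene and close at its start. Zfp36, an RNA-binding protein that degrades cytokine mRNAs, had 61 and 53 reads in A and 200 and 385 in B in its body (-3.49, SE 0.27). The MAP kinase phosphatase gene Dusp1 (-2.28), Atf3 (-2.53) and Ier2 (-2.62 past its end) had called peaks of smaller size.

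Gene starts of the same family differed less. At the Fos start (chr12:85473668-85474067), whose promoter is printed above, A held 436 and 455 reads while B held 450 and 742, and their levels were 7.91 and 8.13 against 9.49 and 9.74 (-1.60, SE 0.22, adjusted p = 0.00103 by limma). Btg2 differed by -1.06 at its start, Jun by -1.04, Egr1 by -1.16 and Fosb by -1.30 (SE 0.19 to 0.24). The highest promoter peak was called higher in B for 17 of the 25 immediate early genes and higher in A for none, with 8 not called, against 1444 (8.99%) and 495 (3.08%) of 16064 genes. The 25 had a median difference of -0.75, against -0.10 over all genes. On the uncentred deposited scale all 25 of these highest promoter peaks had the higher mean in A, by a median of 0.48. The median peak stood at 1.29, so the direction at these 25 turns with the scaling. For Fos and Fosb the highest promoter peak is not the gene-start peak described above. At the Fos gene-start peak the deposited log2 mean was 8.68 in A and 9.04 in B, and at the Fosb gene-start peak 8.10 and 8.17.

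Across positions, the 25 genes had 452 peaks, of which 47 were higher in A and 60 in B (10.4% and 13.3%). Over all peaks the shares were 5.78% and 3.41%. Klf6 held 13 of the 47 and 2 of the 60. Of 18 peaks at the ends of the 25 genes 14 were higher in B and 1 in A. In their bodies it was 16 and 0 of 44, and farther than 10 kb 6 and 39 of 288. Over all peaks of these positions the shares higher in B and in A were 4.90% and 5.08%, 2.59% and 5.91%, and 2.85% and 6.88%. Peaks of 1 gene share its locus and are not independent. Myc, which promotes growth, held the one gene-end peak called towards A: the peak 1.6 kb past its end held 121 and 113 reads in A and 7 and 16 in B (2.09, SE 0.34, adjusted p = 0.0149 by limma), and its gene-start peak had a difference of 0.54 (SE 0.24, adjusted p = 0.108 by limma). Fosl1 (0.38, SE 0.29) and Egr3 (-0.36, SE 0.25) were not called at the start either, but a peak past the end of Egr3 was higher in B (-2.17, SE 0.31). Where a gene had a peak of both kinds, the difference at the highest end peak lay more than 1 unit (log2) below that at the start in 5 of 13 immediate early genes (Btg2, Egr1, Egr3, Fos and Jun) and in 168 of 1601 genes over all (10.5%).

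**Figure D2:**
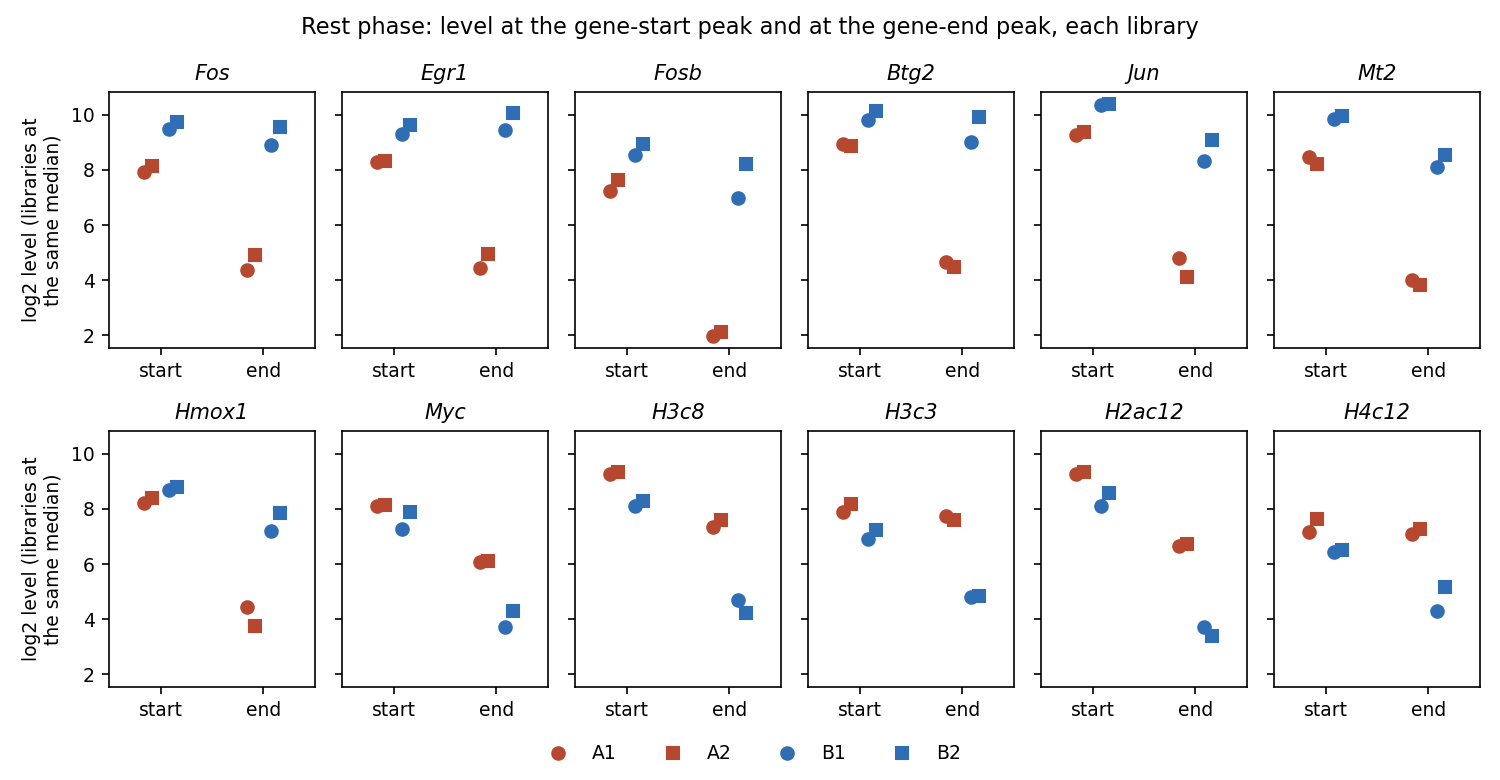
Log2 level of each rest-phase library at the gene-start peak and at the gene-end peak with the largest difference, for 12 genes; red marks group A and blue group B, circles library 1 and squares library 2 of a group. In Fos, Egr1, Fosb, Btg2, Jun, Mt2 and Hmox1 the libraries of B lie above those of A by more at the end than at the start, where choosing the most different end peak favours this order (at the highest end peak of Fosb the difference was -1.27, against -1.30 at its start), and in Myc and the 4 histone genes the order of the groups is the reverse.

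Of the stress genes, Mt2 and Hmox1 were higher in B past their ends, and over the list 3 of 9 gene-end peaks were called towards B and 6 were not called. Mt2, a metal-binding metallothionein, held 28 and 22 reads in A and 169 and 321 in B past its end (chr8:94174089-94174488; -4.40, SE 0.30, adjusted p = 0.000186 by limma) and differed by -1.55 (SE 0.21) at its start. Hmox1, which breaks down haem, had 38 and 21 reads in A and 91 and 197 in B past its end (-3.43, SE 0.31). Its gene-start peak was not called (-0.45, SE 0.23, adjusted p = 0.140 by limma). The stress list had 16 peaks higher in B and 2 in A of 159 (10.1% and 1.26%), with the start peaks of 6 of 17 genes higher in B. No peak was assigned to Gadd45b. Id3, an inhibitor of helix-loop-helix factors, had 13 and 78 reads in A and 204 and 466 in B past its end (-4.44, SE 0.28), and the A libraries differed from each other more there than in the peaks above.

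Among other gene ends higher in B, chosen after their values were seen, were those of the creatine transporter Slc6a8 (-3.66), the polyamine enzyme Sat1 (-3.23), the GTPase Rhob (-3.15), the kinase Sgk1 (-2.94), the ubiquitin gene Ubb (-2.57) and the iron store genes Fth1 (-2.44) and Ftl1 (-2.26). Fth1 held 377 and 198 reads in A and 468 and 863 in B. At gene starts, peaks higher in B, chosen among the largest after their values were seen, included Kmt2a, a histone H3 lysine 4 methyltransferase (169 and 193 reads in A, 275 and 462 in B; -2.20, SE 0.24), the acetyltransferase gene Kat6a (-1.92), the splicing factor gene Snrnp70 (-1.91) and the nuclear RNA Malat1 (-1.91). The ribosomal protein gene Rps12 stood at -1.87 and the RNA polymerase subunit gene Polr2e at -1.83. Housekeeping genes leaned the same way, with 14 of 97 peaks higher in B and 3 higher in A (14.4% and 3.09%), among them Actb, cytoplasmic actin, past its end (-1.65, SE 0.22). The start peaks of 5 of 11 housekeeping genes were called higher in B, and all 5 had the higher mean in A without centring.

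Outside these families, the largest differences towards B lay 16.8 kb before the RefSeq start of Phldb2, in an exon by the deposited annotation (17 and 13 reads in A, 142 and 171 in B; -4.52, SE 0.32), in an intron of Dnm3, a dynamin (24 and 22 against 155 and 208; -4.13, SE 0.31), and 41.3 kb before the glucose transporter gene Slc2a12 (-4.10, SE 0.41). Peaks assigned to Ccdc148 (-3.96, SE 0.41) and Tent5c (-3.95, SE 0.54) rest on 3 to 11 reads per library in A and 20 to 65 in B.

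**Figure D3:**
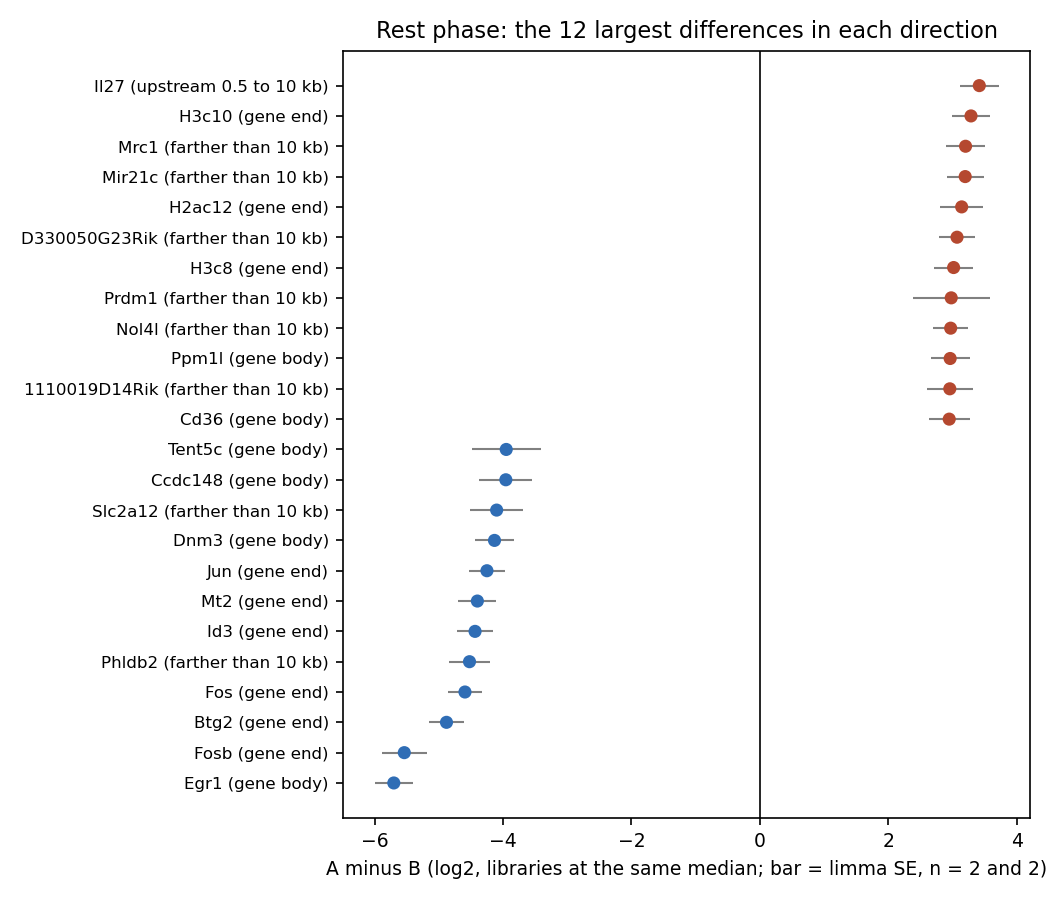
Difference A minus B (log2) with the limma SE for the 12 largest called peaks in each direction, 1 per assigned gene, with the position class in brackets. The blue points, higher in B, run from -5.70 to -3.95 and hold 6 gene ends; the red points, higher in A, run from 2.95 to 3.42.

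Towards A, the largest difference lay 4.1 kb before Il27, a cytokine of activated myeloid cells. This peak (chr7:126598935-126599334) held 396 and 334 reads in A and 15 and 12 in B, and levels were 7.77 and 7.68 against 4.70 and 3.91 (3.42, SE 0.30, adjusted p = 0.000779 by limma), which is 10.7-fold higher in A. The A libraries lay close together and far above both B libraries. Others among the 12 lay 12.9 kb before Nol4l (2.97, SE 0.27), in an intron of the phosphatase gene Ppm1l (2.97, SE 0.30), in an intron far before Prdm1 (2.98, SE 0.60, with 0 and 4 reads in B), and far from Mir21c, D330050G23Rik and 1110019D14Rik, to which they are assigned.

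Histone genes made up 3 of the 12. The peak 536 bp past the end of H3c10 (chr13:21718452-21718851) held 478 and 358 reads in A and 18 and 16 in B (3.29, SE 0.29, adjusted p = 0.000805 by limma). H2ac12 had 183 and 173 reads in A and 7 and 8 in B past its end (3.15, SE 0.33), and H3c8 had 296 and 315 against 15 and 15 (3.02, SE 0.30). At the starts the same direction was smaller: H3c8, printed above, had 1120 and 1060 reads in A and 172 and 270 in B (1.11, SE 0.22), and H2ac12 differed by 0.98 (SE 0.22). Over all 38 clustered histone genes with a peak, a list drawn up after these values were seen, 10 of 14 gene-end peaks and 13 of 26 gene-start peaks were higher in A and none of either was higher in B. In each of 9 histone genes with both kinds of peak the difference at the end exceeded that at the start, by 0.50 to 2.17. Genes of the same histone type can share sequence, and no source used here gives the authors' treatment of reads that match several places. The cell cycle list had 13 of 143 peaks called towards A and 5 towards B (9.09% and 3.50%). Over all peaks the shares were 5.78% and 3.41%. Ccnd1 held 8 of the 13, and the other 14 genes had 5 and 4 of 116 (4.31% and 3.45%). Cdkn1a, a cell cycle inhibitor, was higher in B at its end (-1.85, SE 0.29), and peaks near Ccnd1 (2.16, SE 0.32) and Ccnb1 (1.98, SE 0.29) were higher in A.

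Of 225 peaks at the 18 macrophage markers 34 were higher in A and 4 in B (15.1% and 1.78%), against 5.78% and 3.41% over all peaks, with a median difference of 0.38 against -0.02, and 25 of the 34 lay farther than 10 kb from the gene. The locus of Maf alone held 21 of the 34, and the other 17 genes had 13 of 145 peaks higher in A and 2 in B (8.97% and 1.38%). The peak 8.9 kb before Fcgr1, a high-affinity Fc receptor (chr3:96302658-96303057), held 488 and 359 reads in A and 26 and 26 in B (2.72, SE 0.28). Adgre1, which encodes F4/80, had 200 and 259 against 20 and 15 in a peak 16.8 kb before it (2.40, SE 0.31), and Maf, a factor that maintains macrophage identity, 530 and 623 against 38 and 68 in a peak 56.5 kb past its start (2.24, SE 0.26). An intron of Ctss, a lysosomal protease gene, had a peak called towards B (-1.55, SE 0.42). Of the start peaks (highest promoter peaks) of the 18 genes, 2 were higher in A and 1 in B.

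Genes of alternative activation had the largest share of calls towards A among the lists other than histone genes. They had 30 of 170 peaks called towards A against 3 towards B (17.6% and 1.76%, median 0.34). For comparison, 5.78% of all peaks tested were called towards A and 3.41% towards B. The locus of Pparg alone held 10 of the 30 calls. Without it, the other 15 genes had 20 calls towards A and 2 towards B among 141 peaks (14.2% and 1.42%). Mrc1, the mannose receptor, had a peak 18.5 kb before its RefSeq start (chr2:14210718-14211117) with 339 and 302 reads in A and 11 and 17 in B (3.21, SE 0.30, adjusted p = 0.00101 by limma). Clec10a, a galactose lectin (2.20, SE 0.34), the IL-4 receptor gene Il4ra (2.11, SE 0.29) and Arg1, arginase 1 (1.98, SE 0.33), had called peaks in the same direction. Start peaks were higher in A for 4 of 15 of these genes and higher in B for none. Chil3 had no peak assigned.

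The lipid lists are given beside the shares over all peaks, 5.78% higher in A and 3.41% in B, and differences between the lists were not tested. Fatty acid synthesis and desaturation had 18 of 138 peaks higher in A and 1 in B (13.0% and 0.725%, start peaks 4 and 0 of 15), and uptake and activation 22 and 3 of 209 (10.5% and 1.44%). The peak 7.1 kb past the end of Scd1, a stearoyl-CoA desaturase, held 304 and 278 reads in A and 22 and 32 in B (2.17, SE 0.29). Fads1, another desaturase, differed by 2.09 (SE 0.29), and Acaca, the acetyl-CoA carboxylase that commits carbon to fatty acid synthesis, by 1.65 (SE 0.31). Cd36, a fatty acid translocase and scavenger receptor, had 285 and 164 reads in A and 5 and 22 in B in an intron (chr5:17843267-17843666; 2.95, SE 0.32, adjusted p = 0.0171 by limma), and Fabp4, a fatty acid chaperone, 124 and 108 against 9 and 14 (2.01, SE 0.34). Triglyceride storage and lipolysis had 17 and 6 of 159 (10.7% and 3.77%), led by Lpl, lipoprotein lipase, with 334 and 212 reads in A and 18 and 22 in B (2.44, SE 0.30). Lpl held 12 of these 17 calls, and the other 14 genes had 5 and 6 of 141 (3.55% and 4.26%). Fatty acid oxidation had 3 and 5 of 88 (3.41% and 5.68%, median -0.19), with Pdk4, which holds back glucose oxidation, at -2.23 (SE 0.33) and Hadha, of the mitochondrial trifunctional protein, at 1.53 (SE 0.27). Cholesterol efflux and synthesis had 11 and 4 of 161 (6.83% and 2.48%), with 6 of the 11 at Abca1, the cholesterol exporter.

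Acsl1, named in the title of the study, activates long-chain fatty acids by joining them to coenzyme A. Of its 23 peaks 1 was called, where 9.18% of all peaks tested were called in either direction. That peak, 41.0 kb before the gene (chr8:46429847-46430246), held 144 and 75 reads in A and 12 and 18 in B (1.50, SE 0.33, adjusted p = 0.0241 by limma). The start peak (chr8:46470652-46471051) held 1009 and 920 reads in A and 584 and 724 in B, with levels of 9.12 and 9.14 against 9.87 and 9.71 (-0.66, SE 0.20, adjusted p = 0.109 by limma). On the uncentred deposited scale its mean was higher in A, so this difference has no settled sign.

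Osteoclast differentiation and resorption had 28 peaks higher in A and 8 in B of 288 (9.72% and 2.78%, against 5.78% and 3.41% over all peaks). Inflammatory activation had 21 and 4 of 234 (8.97% and 1.71%), and interferon response 10 and 5 of 143 (6.99% and 3.50%). Ctsk, the collagenase of osteoclasts, was higher in B 1.8 kb before its start (-1.95, SE 0.30), while peaks of Atp6v0d2 (2.01, SE 0.28) and Siglec15 (2.02, SE 0.27), genes of osteoclast fusion, were higher in A. Ccl2, a monocyte attractant, was higher in B (-2.14, SE 0.32) and Acod1, which makes itaconate, higher in A (2.02, SE 0.37). Ifit2 was higher in A (2.61, SE 0.34) and Ifit3 higher in B (-1.96, SE 0.41). Glycolysis had 10 and 5 of 213 (4.69% and 2.35%) and chromatin enzymes 14 and 9 of 261 (5.36% and 3.45%). In the former Pkm, pyruvate kinase, stood at -2.10 (SE 0.33) and Pdk1 at 1.84 (SE 0.28). The DNA demethylase gene Tet2 (2.30, SE 0.32) and Kmt2c (2.19, SE 0.31) had peaks higher in A, and Tet2 held 5 of the 14. Start peaks of chromatin enzymes were higher in A for 0 and higher in B for 3 of 17 genes. Over all genes the shares were 3.08% and 8.99%.

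Markers of other cells had smaller shares of calls towards A than the macrophage markers (15.1%, or 8.97% without Maf). Beside 5.78% and 3.41% over all peaks, counts higher in A and in B were 1 and 4 of 88 peaks for neutrophils (1.14% and 4.55%), 6 and 3 of 110 for B cells (5.45% and 2.73%), 2 and 9 of 105 for T and NK cells (1.90% and 8.57%) and 1 and 3 of 87 for erythroid cells and megakaryocytes (1.15% and 3.45%). The median differences of these 4 lists were -0.57, -0.52, -0.34 and -0.25, against 0.38 for the macrophage markers. Under quantile scaling they were -0.54, -0.27, -0.31 and -0.26, against 0.28. Over all peaks, the lowest of 5 groups by level had a median of -0.71 under the first scaling and -0.21 under quantile scaling. In that lowest group 0.332% of peaks were called towards A and 2.08% towards B, and in the highest group 11.5% and 6.76%. The start peaks of these 4 lists had median levels of 4.69 to 5.81, against 8.01 for the macrophage markers. The part of level in these medians and in the shares called was not tested. For stem and progenitor cells the counts were 15 and 4 of 232 (6.47% and 1.72%) and for dendritic and mast cells 1 and 2 of 43 (2.33% and 4.65%). Stromal, osteoblast and fat cells had 13 and 9 of 176 (7.39% and 5.11%). The median differences of these lists were, in the same order, 0.09, -0.32 and -0.08. S100a9, a calprotectin subunit of neutrophils and monocytes, had 5 and 8 reads in A and 25 and 31 in B past its end (-3.19, SE 0.49). The 1 peak of the neutrophil list called towards A was at the promoter of Ly6g (1.54, SE 0.31). The 2 peaks of the T and NK cell list called towards A were at Gata3 (1.80, SE 0.375) and Lck (0.98, SE 0.27). Vwf differed by -3.04 (SE 0.33) in an intron, Lef1 by -2.19 (SE 0.45) and Ms4a1, which encodes CD20, by 2.02 (SE 0.28). The part of such cells in the other differences was not tested.

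**Figure D4:**
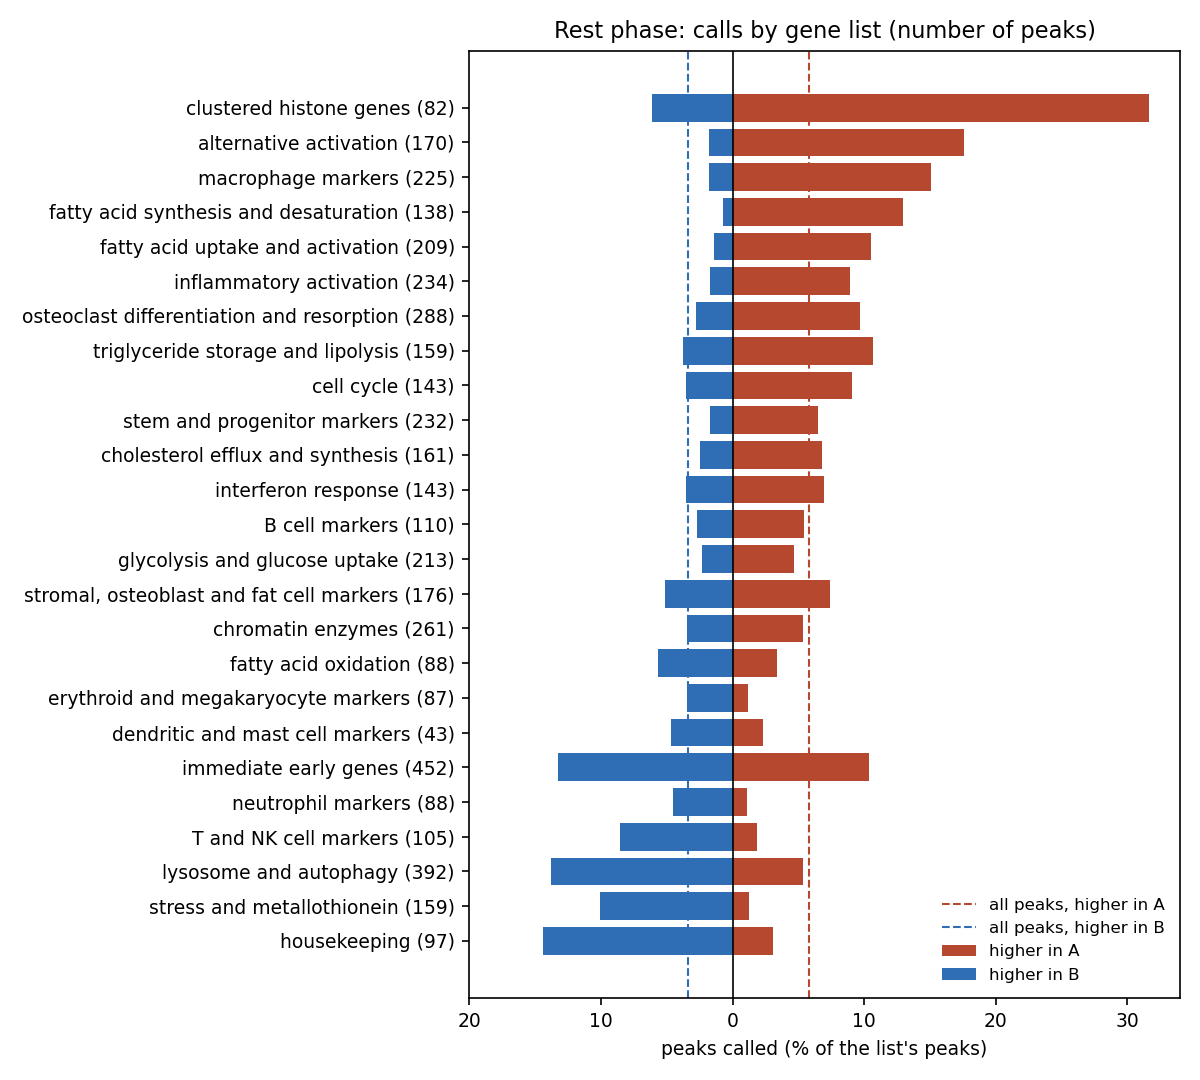
Percent of the peaks of each gene list called higher in A (red, to the right) and higher in B (blue, to the left), with the number of peaks in brackets and dashed lines for all peaks (5.78% and 3.41%). Clustered histone genes, alternative activation and macrophage markers reach farthest to the right, and housekeeping, lysosome and autophagy, and immediate early genes farthest to the left.

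Genes ranked by their number of calls, which favours genes with many assigned peaks, were led towards A by Maf. It had 21 of 80 peaks higher in A and 2 higher in B, Rbpj, the nuclear effector of Notch, 20 of 60, and Irf2, an interferon regulatory factor, 19 of 41, the last 2 with none higher in B. At Rbpj a peak 64.9 kb before the start (chr5:53490726-53491125) held 1362 and 1227 reads in A and 99 and 135 in B (2.24, SE 0.23, adjusted p = 0.000370 by limma). Next came 4930459C07Rik with 18 of 60, Pid1 with 17 of 55, A630001O12Rik with 16 of 45, and Fat3, Lpp, Pvt1 and Asap1 with 15 each. Towards B the counts were 10 of 30 at Fnip2, a folliculin partner, 9 of 23 at Ccny, 7 of 20 at Psap, the saposin precursor, and 7 of 15 at Egr1. Sqstm1, the autophagy receptor p62, had all 6 of its peaks higher in B, and Tnfaip2 (6 of 10) and Fos (6 of 33, with 3 higher in A) followed.

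Promoter windows under called peaks differed in sequence. Each of 10698 windows of 300 bases was paired with the tested peak that overlaps it most, and 216 of these peaks were higher in A and 1129 higher in B. Median GC content was 50.7% in the windows higher in A, 62.0% in those higher in B and 60.3% in those not called. The AP-1 site TGANTCA, on either strand, was in 16.7% of windows higher in A, 4.16% of those higher in B and 6.64% of all 10698, and the PU.1 site GAGGAAGT in 10.6%, 2.83% and 4.04%. The full response element TGACGTCA was in 0.463%, 5.31% and 3.16%, its half-site in 15.7%, 39.9% and 29.8%, and the GC box GGGCGG in 29.6%, 70.4% and 60.4%. GC content moves with these shares, and its part in them was not tested. Of 5 groups of windows by GC content, the lowest (up to 51.7%) had 119 peaks higher in A and 122 in B of 2191, and the fourth (63.0% to 68.3%) 14 and 296 of 2076.

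Levels of the named peaks were set beside those of the other 8 libraries after quantile scaling over all 12, as a description, since the mean columns of the tables cannot be matched by label. At the end of Egr1 the rest-phase B libraries stood at 9.45 and 9.86, rest-phase A at 4.32 and 4.76, and the other phases between 3.21 and 5.87. At the more different end peak of Btg2 rest-phase B stood at 9.06 and 9.70 and the other 10 libraries between 3.83 and 6.75. At its other called end peak (chr1:134073135-134073534) the first phase, at 6.96 to 8.12, stood above rest-phase B at 6.51 and 6.82. Past the end of Mt2 rest-phase B stood at 8.23 and 8.33, and 1 second-phase library came nearest at 6.60. At the more different end peak of Fosb rest-phase B stood at 7.24 and 8.00, above all others, but at its other end peak (chr7:19300887-19301286) the first phase, at 7.15 to 7.49, stood above rest-phase B at 6.57 and 7.09.

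Peaks higher in A had other patterns. Before Il27 rest-phase A stood at 7.51 and 7.50, close to the 4 second-phase libraries at 6.78 to 7.66, while rest-phase B stood at 4.35 and 3.79, below the first phase at 4.92 to 5.90. At Mrc1 rest-phase A stood at 7.25 and 7.32, rest-phase B at 3.70 and 4.30, the first phase at 2.81 to 4.36 and the second phase anywhere from 4.38 to 7.75. At the end of H3c10 rest-phase A stood at 7.86 and 7.62, rest-phase B at 4.78 and 4.20, the first phase at 5.89 to 6.96, and the second phase ran from 1.94 to 7.66, with libraries of 1 group on both sides.

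**Figure D5:**
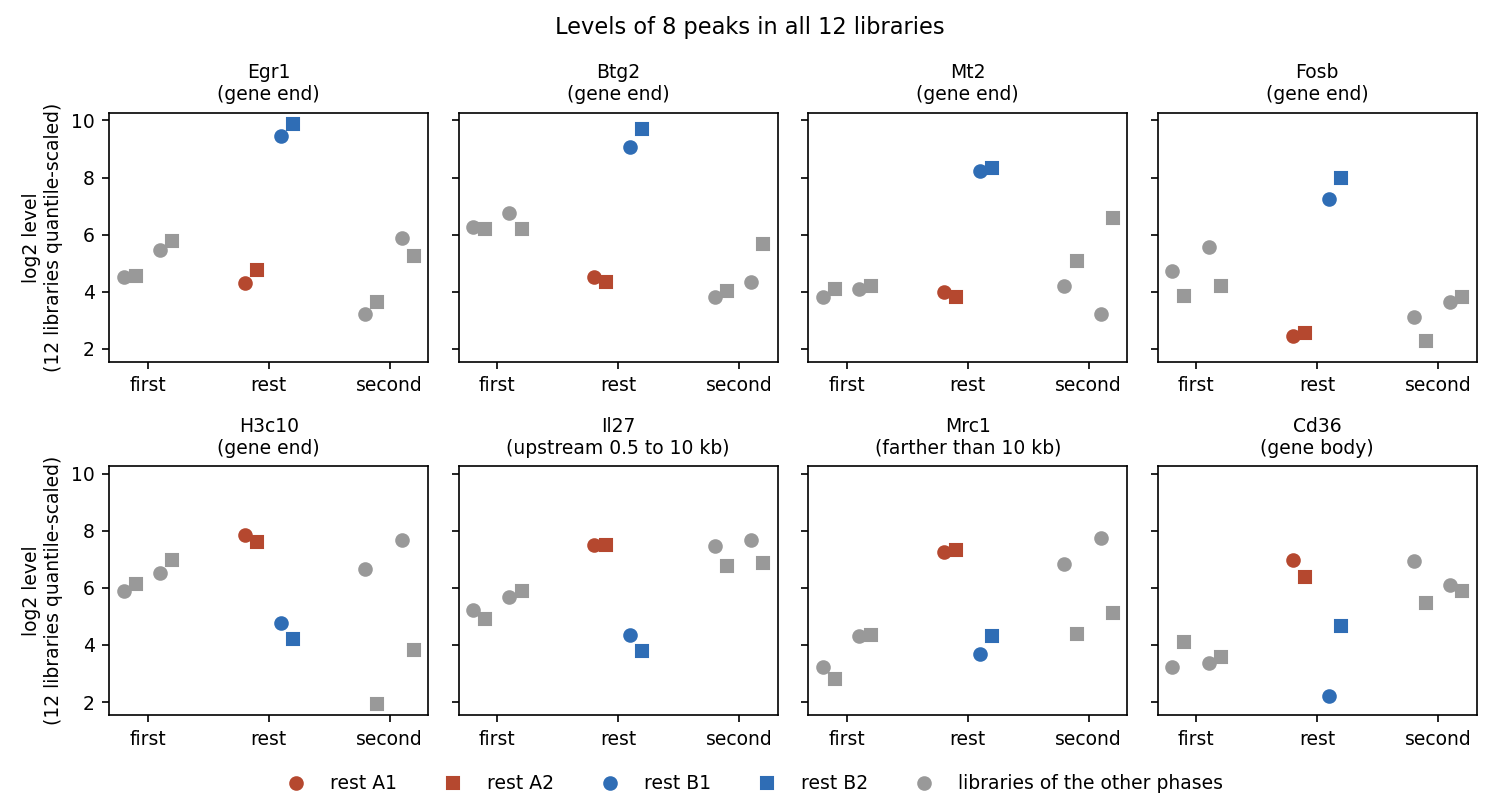
Log2 level of 8 named peaks in all 12 libraries after joint quantile scaling, by phase; rest-phase A is red, rest-phase B blue and the libraries of the other phases grey, with circles for library 1 and squares for library 2. Rest-phase B lies above every other library at the plotted end peaks of Egr1, Btg2, Mt2 and Fosb, which for Btg2 and Fosb are the more different of 2 called end peaks; at the other one the first phase lies higher.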

How the data were processed

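Of 12 mouse macrophage ATAC-seq libraries, the 4 of the rest phase were compared and the other 8 gave levels of named peaks only. The authors deposited 1 table per phase with the log2 group mean of normalized reads at each of 139999 peaks and the nearest gene. Build mm10 and the tools MACS2, DESeq2, HOMER 5.1, DiffBind 3.14.0, Picard 3.2.0, Bowtie2 2.5.4 and deepTools 3.2.1 are named per the submitters' processing notes, without their roles. The deposited fold changes and p-values were not used.

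Each mean is the average of 2 whole read numbers times the worth of a read, which was solved for whole reads; 59 peaks with a mean listed at 0 were left out. limma 3.58.1 (trend) was run in R 4.3.3 on log2 (value + 1), and tested on simulated data. Group and library numbers within a column follow the worth of a read, not the labels. Positions used RefSeq genes (GRCm38), with 2343 peaks unmatched.

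Named peaks were the 12 largest called differences in each direction with at least 20 reads in every library of the higher group, the start peaks of 25 immediate early genes and Acsl1, up to 4 called peaks per list and the 8 genes with most calls in each direction (the eighth towards B is tied among 10 genes with 5 calls, and the seventh and eighth towards A among 4 with 15). Other named peaks were chosen after their values were seen. The members and the 23 lists were chosen with earlier results of these data known, and the histone and lysosome lists after seeing values. Alternatives were other scalings, pseudocounts, a filter, a threshold and leaving out each library.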

Additional observations from a re-analysis of the deposited data

How the results depend on the processing

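No paired analysis was possible because the recovered libraries carry no replicate numbers. The count of called peaks (12851; 8085 higher in A, 4766 in B) was 29649 (18343 and 11306) under median-centred scaling alone, 29983 (18376 and 11607) under total reads in peaks and 77452 (76810 and 642) with no centring, where the median difference was 1.31. It was 16627 under quantile scaling alone, with 7685 higher in B, so that 53.8% of calls were higher in A in place of 62.9%. At a threshold of 0.01 it was 3564 (2054 and 1510). Pseudocounts of 0.5 and 5 and a mean of at least 10 reads kept it within 1.5 times. Leaving out any 1 library gave 0 calls under both scalings (9947 to 31789 peaks at an unadjusted p under 0.05), where a lone library is assumed to vary like the other pair. Under median-centred scaling alone, chosen after seeing the data, the counts without A1 were 4867 (3113 towards A, 1754 towards B), without A2 they were 7207 (5457 and 1750), leaving out B1 gave 25654 (15978 and 9676), and leaving out B2 gave 41065 (24870 and 16195). Of 129 named peaks, the difference changed sign only in 2 uncalled ones under the alternatives other than no centring: the Fosl1 start under quantile scaling (-0.051) and the Myc promoter peak without B1 (-0.16, and 0.40 at the upper end, without B2). A pseudocount of 5 lost the call of 11 named peaks, and leaving out any 1 library that of 120. Depth limits peaks at the level of Tent5c or Prdm1, where a group holds under 12 reads per library.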

Other observations

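Genes of lysosomes and autophagy, a list drawn up after their values were seen, had 54 of 392 peaks higher in B and 21 higher in A (13.8% and 5.36%, against 3.41% and 5.78% over all peaks), and start peaks of 11 of 34 genes were higher in B and none in A. Of the 54, 27 had the higher mean in B on the uncentred deposited scale as well. Sqstm1 was higher in B in its body and past its end (78 and 26 reads in A, 87 and 154 in B at its most different peak; -2.56, SE 0.30), and Ctsd, the protease cathepsin D, had 71 and 56 reads in A and 112 and 206 in B in its body (-2.48, SE 0.28). Rragd, a Rag GTPase of the nutrient-sensing complex on lysosomes, stood at -1.78 (SE 0.27) at its start, Tfeb, the factor that drives lysosomal genes, at -1.50 (SE 0.29) in its body, and Psap at -1.72 (SE 0.27) in its body. Gpnmb had peaks on both sides: 5 in its body and at its start were higher in B, and 2 upstream were higher in A, the larger with 199 and 77 reads in A and 8 and 12 in B (2.28, SE 0.34). Peaks of Lipa, the lysosomal acid lipase, reached 1.69 (SE 0.32) and those of Mitf 1.90 (SE 0.37) towards A.

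Gene starts higher in A, chosen among the largest after their values were seen, included Psd3 (846 and 812 reads in A, 44 and 101 in B; 2.38, SE 0.25), Xkr5 (2.33, SE 0.26), the interferon-inducible gene Mndal (2.21, SE 0.30), Cysltr1, a cysteinyl leukotriene receptor (2.15, SE 0.27), Dmwd (2.14, SE 0.29), the histone gene H3c2 (2.02, SE 0.26), P2ry12, an ADP receptor (2.00, SE 0.32), Fnbp1 (1.96, SE 0.28), Clec2i (1.94, SE 0.32) and C5ar1, the complement C5a receptor (742 and 627 reads in A, 60 and 99 in B; 1.90, SE 0.25).

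Peaks on chromosome X had a median difference of 0.28 (0.45 under quantile scaling), against -0.02 on the autosomes. Of 2945 peaks on X, 224 were higher in A and 71 in B (7.61% and 2.41%, against 5.74% and 3.43% on the autosomes). Of 5 equal groups of peaks by level, the lowest had 4.23% and 4.39% of the reads of the A libraries on chromosome X but 1.94% and 2.72% of those of B. The highest had 1.27% and 1.31% for A, 1.40% and 1.37% for B. In that group 14 of 455 peaks on X were higher in A and 38 in B (3.08% and 8.35%, against 11.7% and 6.73% on the autosomes). All donors are labelled male. The cause was not tested.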
